A study of Homo sapiens with 118 samples.

Results

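The transcripts examined here encode subunits, other than the deacetylases themselves, of 4 corepressor complexes that carry histone deacetylases, namely CoREST, SIN3, NuRD and NCoR. They were chosen by name, as rows of the count table whose gene symbol is 1 of 35 listed subunits, and 43 of 22068 rows matched. A row is the count of 1 detector probe and is called a feature here. Of these genes, 6 were read by more than 1 probe (RBBP4 by 4, and CHD4, MBD2, NCOR1, RCOR3 and SAP18 by 2 each), and the positions of the probes were not used here.

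The cells were HepaRG, an established human line derived from a liver tumor, thawed in the differentiated state and kept in culture before exposure. Each well received 1 of 8 histone deacetylase (HDAC) inhibitors at 1 of 5 concentrations, named C1 (lowest) to C5 (highest), for 72 h with the chemical renewed daily, and lysates were read by TempO-Seq, a targeted assay that ligates paired probes on each transcript, then amplifies and counts them. Replicates 1, 2 and 3 of a group came from 3 HepaRG batches, so that 118 libraries formed 40 groups, of which 38 had 3 libraries, and panobinostat C3 and trichostatin A C4 had 2, lacking batch 3. C1 to C5 spanned 0.0417 to 0.86 µM for apicidin, 0.177 to 3.9 µM for mocetinostat, 0.00147 to 0.084 µM for panobinostat, 4.94 to 94.5 µM for scriptaid, 1.14 to 44 µM for tacedinaline, 0.0188 to 1.52 µM for trichostatin A and 0.405 to 23.5 µM for vorinostat. The dose labels of valproic acid run from 100.478 to 3038, whereas those of the exposure protocol are smaller under the same unit, which leaves the true unit unsettled. The concentrations differ between the inhibitors, and values at C5 are therefore set side by side and not at matched doses. Scriptaid, tacedinaline and vorinostat lay on plate E, and the other 5 inhibitors on plate H. Solvent-control libraries were not used here, so C1 of the same inhibitor was the reference, and any change that was already full at C1 escapes these comparisons.

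Histone deacetylases act on chromatin mostly inside multisubunit complexes, in which scaffold and adaptor proteins bring the enzyme to promoters. CoREST is brought to neuronal genes by the repressor REST and also carries the histone demethylase KDM1A. SIN3A and SIN3B are the scaffolds of SIN3, NuRD couples deacetylation to nucleosome remodelling by a CHD3, CHD4 or CHD5 ATPase, and NCoR activates HDAC3, through which it represses metabolic genes in hepatocytes. Among the inhibitors, panobinostat, scriptaid, trichostatin A and vorinostat are hydroxamates, mocetinostat and tacedinaline are benzamides, apicidin is a cyclic tetrapeptide and valproic acid is a short-chain fatty acid.

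Promoter sequences of the genes whose transcripts changed in the largest number of inhibitors in either direction, and of the paralogs SAP30 and SAP30L, are shown to give their proximal sequence context. They run from 250 bases before to 50 bases after the annotated start in RefSeq (GRCh38.p14), 5′ to 3′ on the strand of the gene. Capitals mark a GC box (GGGCGG or CCGCCC) or a CCAAT box (CCAAT or ATTGG), on either strand. SAP30L (chr5:154445747-154446046, plus strand) holds 4 GC boxes and 2 CCAAT boxes, SAP30 (chr4:173370704-173371003, plus strand) holds 2 GC boxes, and neither motif lies in the window of BRMS1 (chr11:66345055-66345354, minus strand) or CHD3 (chr17:7888539-7888838, plus strand).
BRMS1: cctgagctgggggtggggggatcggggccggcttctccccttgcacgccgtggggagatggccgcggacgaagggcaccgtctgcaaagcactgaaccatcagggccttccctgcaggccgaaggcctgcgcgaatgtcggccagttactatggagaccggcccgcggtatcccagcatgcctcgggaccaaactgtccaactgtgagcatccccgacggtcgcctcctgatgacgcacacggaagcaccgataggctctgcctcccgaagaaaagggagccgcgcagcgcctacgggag
SAP30L: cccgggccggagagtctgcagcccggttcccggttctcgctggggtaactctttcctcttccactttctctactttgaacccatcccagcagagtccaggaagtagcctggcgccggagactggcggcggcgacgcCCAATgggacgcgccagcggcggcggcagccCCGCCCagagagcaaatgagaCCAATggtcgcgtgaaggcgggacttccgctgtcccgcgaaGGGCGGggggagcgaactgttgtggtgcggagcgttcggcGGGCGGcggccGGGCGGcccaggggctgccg
SAP30: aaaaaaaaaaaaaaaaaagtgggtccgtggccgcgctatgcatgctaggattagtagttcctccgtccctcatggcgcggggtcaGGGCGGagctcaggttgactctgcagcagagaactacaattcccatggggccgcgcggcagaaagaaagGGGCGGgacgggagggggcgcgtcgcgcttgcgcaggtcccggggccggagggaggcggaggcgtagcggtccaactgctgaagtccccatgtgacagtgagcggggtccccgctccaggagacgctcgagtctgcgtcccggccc
CHD3: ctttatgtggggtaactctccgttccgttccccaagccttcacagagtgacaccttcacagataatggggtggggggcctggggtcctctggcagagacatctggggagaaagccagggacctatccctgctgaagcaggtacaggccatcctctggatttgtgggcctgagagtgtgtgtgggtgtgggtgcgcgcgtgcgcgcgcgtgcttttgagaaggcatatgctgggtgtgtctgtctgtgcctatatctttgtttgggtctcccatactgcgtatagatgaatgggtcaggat

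Windows were found for 32 of the 35 genes (not for CHD5, RCOR2 and SAP18), 48 windows in all since some genes have several starts. A GC box lay in 37 of the 48 (77.1%), against 45.0% of all 35116 windows, and a CCAAT box in 18 (37.5%), against 34.6%. TATAAA, or TTTATA on the other strand, lay in 4 (8.33%), against 11.5%. These are counts of letters in a window, and windows of 1 gene can overlap.

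Total counts per library ranged from 1061359 to 5250260. In 4 groups the library that correlated least with the others of its group had a median r under 0.9 over all probes, and these 4 are the libraries said here to stand apart: scriptaid C4 replicate 3 (0.822), mocetinostat C2 replicate 3 (0.854), trichostatin A C1 replicate 3 (0.882) and mocetinostat C3 replicate 1 (0.899). The other libraries of scriptaid C4 (0.871 and 0.882) and mocetinostat C2 replicate 1 (0.887) were also under 0.9 and were not counted among them. The 8 hepatocyte markers (ALB, APOA1, APOB, TTR, TF, SERPINA1, FGB and HNF4A) were present in all libraries at C1, with a summed level between 13137 and 65430 CPM (counts scaled to 1e6 per library after TMM normalisation). PTPRC was at 0 counts in every library, and CDH5, EPCAM and LYZ did not pass 5 counts. In bulk lysates of this kind, fewer cells of a type and less RNA per cell cannot be told apart.

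Subunits of the complexes did not move together at the highest concentration: SIN3 transcripts that changed rose. The NuRD transcripts that changed mostly fell, in a share of tests near that of all features. A feature was called when the edgeR quasi-likelihood test of C5 against C1 within 1 inhibitor gave a Benjamini-Hochberg adjusted p under 0.05 over all features and a fold change of at least 1.5, and "rose" and "fell" are used for called features only. Where groups are said not to overlap, this describes the libraries. The share of all features without overlap is not given here. Lack of overlap thus adds no support to a call and is not read as a change where no call was made. The filter on low counts passed 37 of the 43 features, from 32 genes, in at least 1 inhibitor, and left out RCOR2, KDM1A, CHD5, 1 probe of MBD2 and 2 of RBBP4. Summed over the 8 inhibitors, 60 of 288 tests of a member were called higher and 18 lower, against 11.6% and 13.4% of all 101732 tests. SIN3 subunits had 43 calls higher and 0 lower in 97 tests (44.3% and 0%). NuRD subunits had 2 higher and 14 lower in 80 (2.5% and 17.5%), so their share lower lay near the 13.4% of all tests. The 14 were calls of CHD3, MTA2, MTA1 and MTA3, and no other NuRD subunit was called lower. CoREST subunits had 2 and 4 in 47 (4.26% and 8.51%), and NCoR subunits had 9 and 0 in 40 (22.5% and 0%). RBBP4 and RBBP7, histone chaperones that belong to both SIN3 and NuRD, had 4 and 0 in 24 (16.7% and 0%). The calls higher include MBD2 in vorinostat and HMG20B in tacedinaline, which passed the filter only through concentrations above C1. Tests of 1 feature in several inhibitors are not independent readings of the subunit list, since they share cells, batches and probes. No SIN3 subunit was called lower under any of the alternative settings tried, in which its calls higher ran from 28 (without replicate 2) to 47 (without the 4 libraries that stood apart). In 1 fit of all 118 libraries NCoR subunits had 9 calls higher and 6 lower, and without the 4 libraries that stood apart they had 9 and 3. CoREST counts moved to 0 and 1 without replicate 2, to 0 and 7 without replicate 3 and to 2 and 7 without the 4 libraries that stood apart. Those of RBBP4 and RBBP7 moved to 2 and 0 without replicate 1 or 2. At C5 no feature was called in both directions, while at C4 TBL1XR1 was lower in valproic acid and higher in vorinostat.

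**Figure D1:**
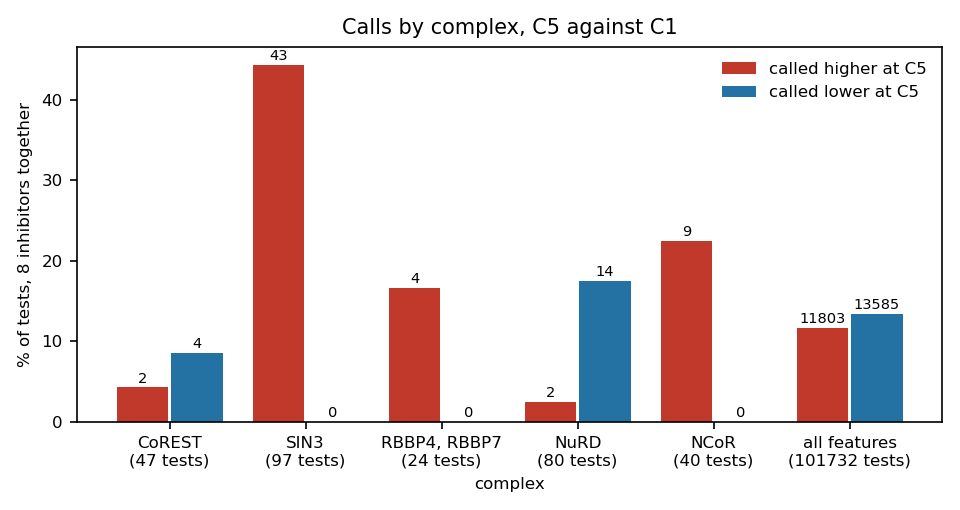
Percent of tests called higher (red) or lower (blue) at C5 against C1, for each complex and for all features, with the 8 inhibitors together; numbers above the bars are calls and numbers in brackets are tests. SIN3 has 43 calls higher and 0 lower of 97, whereas NuRD has 2 higher and 14 lower of 80. The NuRD share lower is 17.5%, near the 13.4% of all features.

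By inhibitor, vorinostat and tacedinaline had the most member features called. They and scriptaid, which came next, are the inhibitors of plate E, so inhibitor and plate cannot be told apart in this order. In vorinostat 16 of 36 tested members rose and 5 fell (22.7% and 24.9% of all features did so), and in tacedinaline 15 of 36 rose and 5 fell (18.7% and 20.1%). In scriptaid 10 of 36 rose and 4 fell (12.8% and 17.0%), in mocetinostat 8 of 37 rose and 2 fell (14.8% and 15.7%), and in apicidin 6 of 36 rose and 1 fell (13.8% and 15.0%). Panobinostat had 3 members higher and 0 lower of 36 (6.76% and 9.47%), and valproic acid 2 higher and 1 lower of 36 (4.84% and 6.22%). The share of members called higher lay near that of all features in apicidin, panobinostat and valproic acid. Some counts fell when a replicate was left out, in fits that also held fewer libraries. Scriptaid went from 14 calls to 3 without replicate 1 and to 4 without replicate 2, and mocetinostat from 10 to 4 without replicate 2. Panobinostat went from 3 to 1 without replicate 1 or 3. Valproic acid went from 3 to 0 without replicate 1 or 2 and to 1 without replicate 3. Leaving out the mocetinostat C2 and C3 libraries that stood apart raised the mocetinostat count to 20. Without scriptaid C4 replicate 3, which also stood apart, the edgeR adjusted p in scriptaid went from 0.00833 to 5.31e-05 for SAP30L and from 0.00869 to 0.000203 for BRMS1.

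In trichostatin A, 0 of 35 tested member features were called by edgeR (0% of all features higher and 0.0154% lower), while 5 had an unadjusted p under 0.05. DESeq2 also called 0 members. Its C1 library of batch 3 had a hepatocyte marker sum of 13137 CPM where its group reached 54434. Without batch 3, 0 of 35 members were called and 7 had an unadjusted p under 0.05. The median log2 change of the members was -0.15 in trichostatin A, and in the other inhibitors 0.26 in apicidin, 0.81 in vorinostat, 0.50 in tacedinaline, 0.38 in mocetinostat, 0.24 in panobinostat, 0.19 in scriptaid and 0.16 in valproic acid. Over all features the medians lay between 0.00 and 0.08.

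The markers of the hepatocyte state moved over the same step. All 8 hepatocyte markers fell in mocetinostat, scriptaid, tacedinaline and vorinostat, 7 in panobinostat and in apicidin and 6 in valproic acid, whereas trichostatin A had 0. Their summed level was 43994 to 59264 CPM at C1 and 3384 to 4824 CPM at C5 of tacedinaline. In vorinostat it was 39708 to 49377 and 3891 to 7349 CPM, and in panobinostat 43252 to 51008 and 22475 to 29284 CPM. Biliary or progenitor markers had 11 calls higher and 0 lower in 33 tests, and stromal or smooth muscle markers 7 higher and 27 lower in 62. The part of these shifts in the results on the subunits was not tested.

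**Figure D2:**
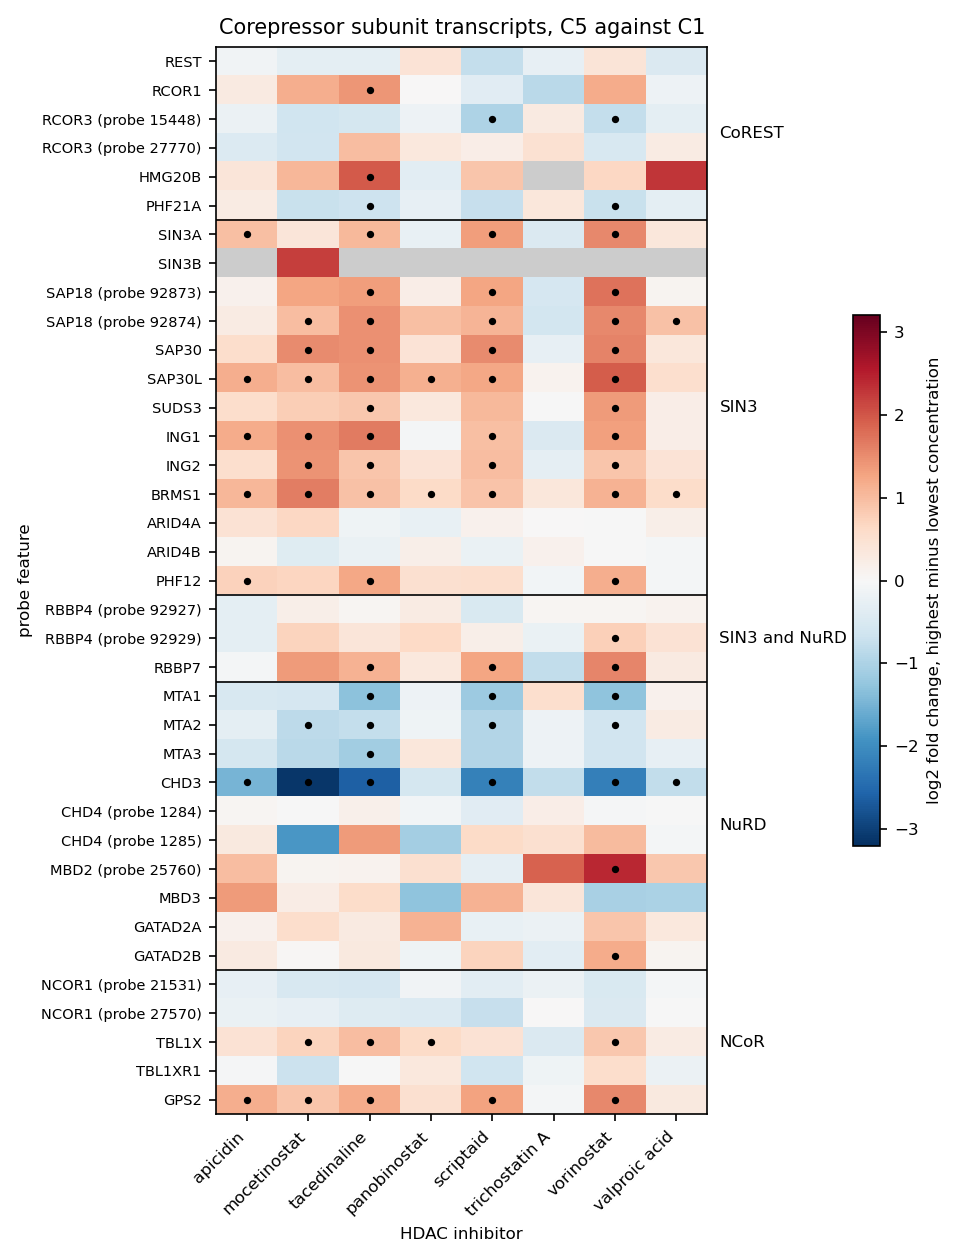
Log2 fold change of each tested member feature at C5 against C1 (colour, red higher, blue lower) in the 8 inhibitors, grouped by complex; black dots mark called features and grey cells were not tested. SIN3 has 43 dots, all on red, CHD3 is blue with a dot in 6 inhibitors, and the trichostatin A column has 0 dots.

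Among SIN3 subunits, BRMS1 rose in the largest number of inhibitors. BRMS1, a SIN3 subunit first described as a suppressor of breast cancer metastasis, was called in 7 of 8, with log2 changes from 0.59 to 1.65. In mocetinostat it measured 80.6, 75.1 and 67.8 CPM at C1 and 224, 218 and 259 CPM at C5. In vorinostat the values were 106, 94.8 and 87.6 CPM at C1 and 173, 246 and 197 CPM at C5. In apicidin they were 92.2, 86.1 and 97.9 CPM at C1 and 224, 159 and 197 CPM at C5. In each of these inhibitors all C5 libraries lay above all C1 libraries, with log2 changes of 1.65 ± 0.26 (SE, edgeR adjusted p = 0.000172, n = 3 per group), 1.10 ± 0.17 (adjusted p = 1.96e-06) and 1.07 ± 0.17 (adjusted p = 6.85e-05).

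BRMS1 was also called in tacedinaline, scriptaid, panobinostat and valproic acid. Tacedinaline libraries held 84.8, 81.1 and 90.1 CPM at C1 and 148, 181 and 161 CPM at C5, and scriptaid libraries 80.0, 101 and 95.9 CPM at C1 and 167, 180.0 and 176 CPM at C5. Panobinostat libraries held 98.8, 81.4 and 82.1 CPM at C1 and 140.4, 129.6 and 134 CPM at C5, and valproic acid libraries 117, 96.4 and 70.1 CPM at C1 and 145, 127 and 156 CPM at C5. The groups did not overlap in any of these 4 inhibitors, and the log2 changes were 0.94, 0.91, 0.62 and 0.59. The call in panobinostat was lost without replicate 1 or 3 (edgeR adjusted p = 0.133 and 0.267), that in scriptaid without replicate 1 or 2 (0.126 and 0.127), and that in valproic acid without any 1 of the 3 (0.127 to 0.287). In trichostatin A the values were 70.7, 94.8 and 82.4 CPM at C1 and 119, 111 and 90.0 CPM at C5, the groups overlapped, and the log2 change of 0.37 ± 0.19 was not called (edgeR adjusted p = 0.561).

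SAP30L and SAP30, paralogous subunits that stabilise SIN3 on chromatin, both rose, SAP30L in 6 inhibitors and SAP30 in 4. SAP30L measured 37.7, 39.5 and 49.2 CPM at C1 and 153, 169 and 162 CPM at C5 in vorinostat, a log2 change of 1.93 ± 0.19 (edgeR adjusted p = 2.63e-10). In tacedinaline it measured 39.7, 38.7 and 42.4 CPM at C1 and 119, 94.1 and 114 CPM at C5 (1.43 ± 0.21), and in panobinostat 34.8, 37.1 and 35.8 CPM at C1 and 73.8, 82.9 and 81.3 CPM at C5 (1.14 ± 0.20). The panobinostat groups were separated by a gap wider than the spread of either, and SAP30L was the member with the largest called change in that inhibitor. Apicidin (40.7, 50.4 and 35.3 CPM at C1 and 89.1, 117 and 78.6 CPM at C5), mocetinostat (42.7, 44.2 and 36.5 CPM at C1 and 67.9, 81.7 and 95.8 CPM at C5) and scriptaid (47.5, 49.3 and 42.2 CPM at C1 and 102, 123 and 103 CPM at C5) gave the remaining calls, again without overlap. The mocetinostat call was lost without replicate 2 or 3 (edgeR adjusted p = 0.0828 and 0.0831) and the scriptaid call without replicate 1 or 2 (0.106 and 0.0864). Valproic acid gave 62.3, 66.1 and 48.6 CPM at C1 and 84.0, 84.9 and 85.8 CPM at C5, where the groups did not overlap and the adjusted p was 0.0471, but the log2 change of 0.53 was under the fold threshold. Trichostatin A gave 46.2, 37.4 and 52.2 CPM at C1 and 40.9, 61.9 and 42.8 CPM at C5, with overlapping groups.

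SAP30 was called in 4 inhibitors. It measured 45.6, 41.4 and 29.7 CPM at C1 and 106, 88.6 and 138 CPM at C5 in scriptaid (1.51 ± 0.30, edgeR adjusted p = 0.00105), where it was the largest rise among the members. Vorinostat gave 45.1, 32.8 and 33.9 CPM at C1 and 123, 114 and 94.0 CPM at C5 (1.58 ± 0.22), and tacedinaline 38.9, 29.2 and 28.7 CPM at C1 and 85.2, 81.7 and 91.4 CPM at C5 (1.45 ± 0.22). In mocetinostat the libraries held 35.4, 30.9 and 23.4 CPM at C1 and 91.5, 88.8 and 76.0 CPM at C5 (1.51 ± 0.36), so that in all 4 inhibitors each C5 library lay above each C1 library, and the mocetinostat call was lost without replicate 2 (edgeR adjusted p = 0.0962). In apicidin it measured 28.2, 43.9 and 41.7 CPM at C1 and 61.0, 56.9 and 49.5 CPM at C5, without overlap and without a call (0.56 ± 0.25, edgeR adjusted p = 0.0969). In panobinostat (35.04, 29.2 and 56.9 CPM at C1 and 55.0, 50.0 and 57.4 CPM at C5) and trichostatin A (45.1, 48.7 and 19.2 CPM at C1 and 21.4, 45.3 and 28.1 CPM at C5) the groups overlapped and the change was not called.

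The PHD finger proteins ING1 and ING2, which read methylated histone H3 lysine 4 for the SIN3 complex, rose in 5 and 4 inhibitors. ING1 measured 27.4, 36.2 and 31.99 CPM at C1 and 95.0, 79.1 and 134 CPM at C5 in tacedinaline (1.66 ± 0.22, edgeR adjusted p = 6.06e-08), 45.2, 45.9 and 42.2 CPM at C1 and 119, 102 and 149 CPM at C5 in mocetinostat (1.47 ± 0.21) and 37.1, 44.2 and 47.0 CPM at C1 and 115, 93.2 and 113 CPM at C5 in vorinostat (1.31 ± 0.23). In apicidin, where ING1 was the largest rise among the members, it measured 35.5, 45.9 and 40.4 CPM at C1 and 106, 85.9 and 83.1 CPM at C5 (1.18 ± 0.20). The C5 libraries lay above the C1 libraries without overlap in these 4 inhibitors. In scriptaid the call (0.96) was lost in each of 3 fits that left out a replicate, with edgeR adjusted p between 0.0527 and 0.0963. Panobinostat gave 45.4, 56.5 and 44.8 CPM at C1 and 44.6, 47.9 and 47.8 CPM at C5 and trichostatin A 63.6, 59.5 and 42.6 CPM at C1 and 33.5, 42.9 and 43.1 CPM at C5, with log2 values of -0.07 ± 0.21 and -0.47 ± 0.21 that were not called. ING2 measured 51.7, 66.9 and 44.5 CPM at C1 and 159, 149 and 138 CPM at C5 in mocetinostat (1.45 ± 0.24) and rose in scriptaid, tacedinaline and vorinostat by log2 changes between 0.90 and 0.98, the scriptaid call being lost without replicate 1 or 2 (edgeR adjusted p = 0.0537 and 0.147).

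**Figure D3:**
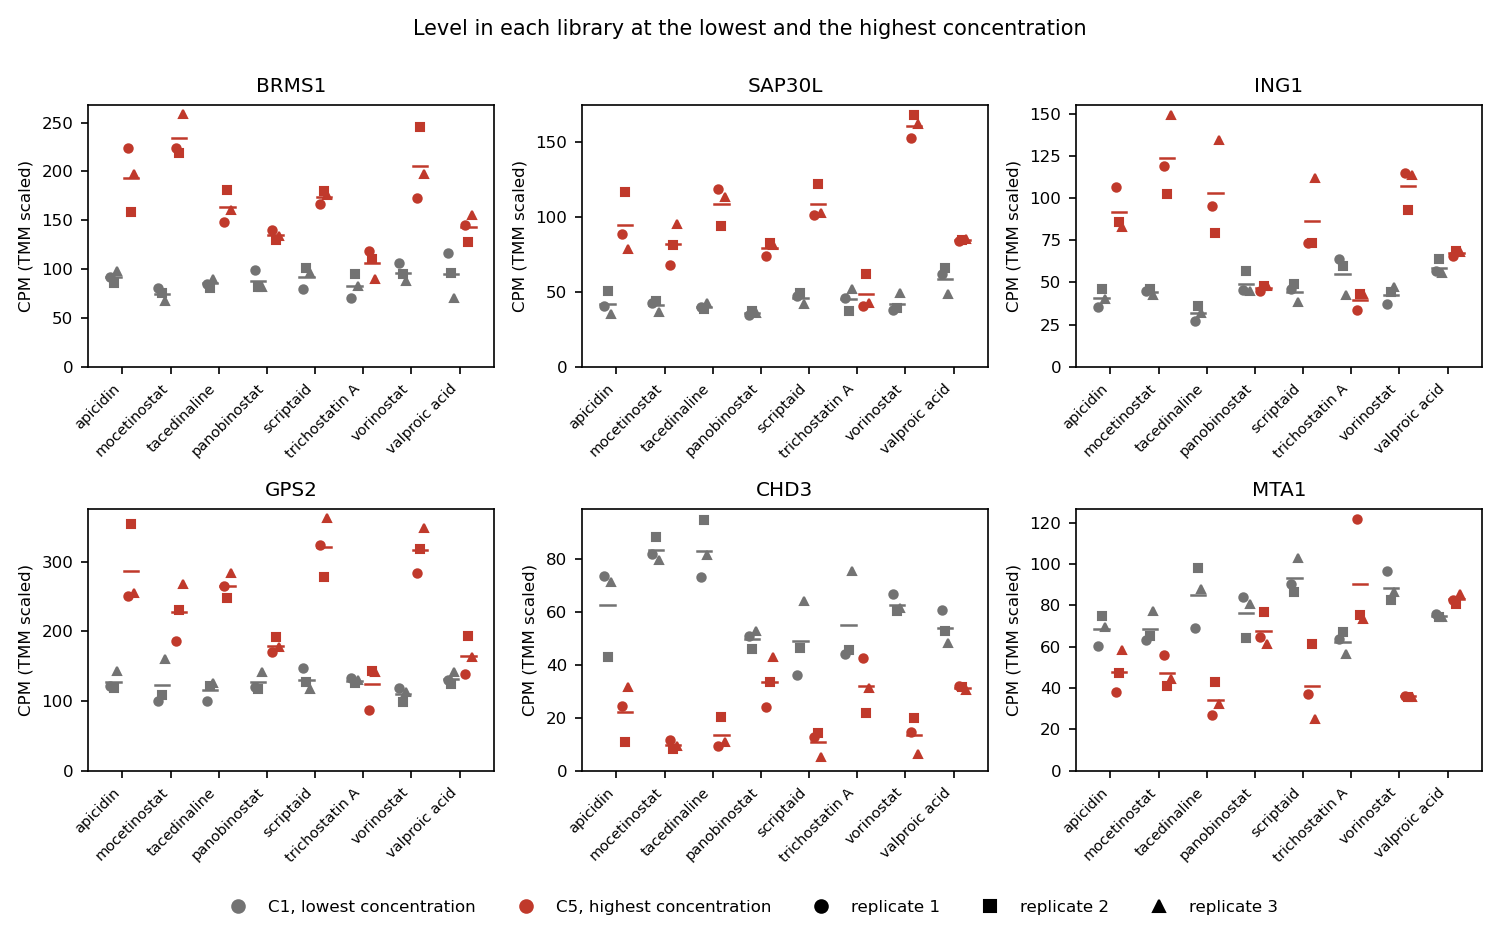
Level in CPM (TMM scaled) of 6 members in each library at C1 (grey) and C5 (red) in the 8 inhibitors; marker shape gives the replicate (HepaRG batch) and short lines are group means. BRMS1, SAP30L, ING1 and GPS2 lie higher at C5 and CHD3 and MTA1 lower in vorinostat and tacedinaline, whereas in trichostatin A the groups of BRMS1, SAP30L, ING1 and GPS2 overlap.

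The scaffold SIN3A rose in 4 inhibitors from a low level. Its values were 17.1, 8.26 and 10.6 CPM at C1 and 47.1, 25.5 and 29.2 CPM at C5 in vorinostat (1.53 ± 0.33, edgeR adjusted p = 0.000251) and 18.5, 6.37 and 10.1 CPM at C1 and 31.6, 30.6 and 25.9 CPM at C5 in scriptaid (1.34 ± 0.49). In tacedinaline they were 10.6, 14.4 and 19.3 CPM at C1 and 41.3, 26.2 and 27.3 CPM at C5 (1.03 ± 0.34), and in apicidin 14.3, 17.5 and 11.0 CPM at C1 and 26.1, 36.7 and 21.1 CPM at C5 (0.97 ± 0.28). The groups did not overlap in these 4 inhibitors, but 3 of the calls were each lost in 2 of the fits without a replicate. In apicidin these were replicates 2 and 3 (edgeR adjusted p = 0.0763 and 0.0687), in scriptaid 1 and 2 (0.105 and 0.351) and in tacedinaline 1 and 2 (0.208 and 0.0511). SIN3B, the other scaffold, passed the filter on low counts in mocetinostat only, with a median of 3 counts over all libraries, and was not called there.

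SAP18, an adaptor also found in splicing complexes, was read by 2 probes that gave similar changes in most inhibitors. Probe 92874 rose in 5 inhibitors and probe 92873 in 3, all of which were among the 5. In vorinostat the log2 changes were 1.53 ± 0.26 and 1.73 ± 0.25, and in tacedinaline 1.45 ± 0.27 and 1.33 ± 0.27. In valproic acid probe 92874 was called (0.95 ± 0.28) and probe 92873 was not (0.08 ± 0.30). Probe 92874 was the largest rise among the members in valproic acid, at 14.0, 13.8 and 15.4 CPM at C1 and 36.0, 21.7 and 25.4 CPM at C5, but the call was lost in each of 3 fits without a replicate (edgeR adjusted p between 0.0745 and 0.333) and when the counts of both probes were summed (0.415). Its mocetinostat call was also lost in each of those 3 fits (0.0758 to 0.175), and its scriptaid call without replicate 1 or 2 (0.123 and 0.186), as was that of probe 92873 (0.0952 and 0.206).

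PHF12, which links SIN3 to chromatin, rose in 3 inhibitors, and SUDS3, which augments the deacetylase activity of the complex, in 2, with log2 changes between 0.75 and 1.37. The PHF12 call in apicidin was lost without replicate 2 (edgeR adjusted p = 0.108). ARID4A and ARID4B, large DNA-binding subunits of SIN3, were not called in any inhibitor, with log2 values between -0.39 and 0.66. Of 13 SIN3 features, 10 were thus called higher at least once. RBBP7 rose in scriptaid, tacedinaline and vorinostat (1.26 ± 0.45, 1.12 ± 0.45 and 1.56 ± 0.42), and 1 of the tested RBBP4 probes in vorinostat (0.75 ± 0.23), while the other, probe 92927, stayed between -0.49 and 0.26 and was not called. The RBBP7 call in scriptaid was lost without any 1 of the 3 replicates (edgeR adjusted p between 0.0929 and 0.239), and those in tacedinaline, where the groups overlapped, and vorinostat without replicate 2 (0.582 and 0.0637). The RBBP4 call was lost without replicate 1 (0.067).

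The NuRD ATPase CHD3 fell in 6 inhibitors and had the largest called fall of any member in each of them. In mocetinostat it measured 81.8, 88.2 and 79.8 CPM at C1 and 11.4, 8.07 and 9.16 CPM at C5, a log2 change of -3.12 ± 0.31 (edgeR adjusted p = 1.64e-06, n = 3 per group). In tacedinaline it measured 73.3, 94.6 and 81.5 CPM at C1 and 9.23, 20.2 and 10.8 CPM at C5 (-2.60 ± 0.28). In vorinostat it measured 66.8, 60.2 and 61.4 CPM at C1 and 14.5, 19.8 and 6.49 CPM at C5 (-2.18 ± 0.30). The highest C5 library lay well under the lowest C1 library in each, although the batch 3 library of vorinostat held only 10 counts at C5.

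CHD3 also fell in scriptaid, apicidin and valproic acid. Scriptaid libraries held 36.0, 46.3 and 64.1 CPM at C1 and 12.6, 14.2 and 5.19 CPM at C5 (-2.16 ± 0.38), and apicidin libraries 73.6, 42.8 and 71.3 CPM at C1 and 24.4, 10.7 and 31.7 CPM at C5 (-1.49 ± 0.31). Valproic acid libraries held 60.6, 52.6 and 48.3 CPM at C1 and 32.1, 31.7 and 30.3 CPM at C5 (-0.78 ± 0.20, edgeR adjusted p = 0.0116), a call lost without replicate 1 or 2 (0.203 and 0.0787). None of these groups overlapped. Panobinostat (50.9, 45.9 and 52.8 CPM at C1 and 24.2, 33.4 and 42.8 CPM at C5, -0.57 ± 0.22, edgeR adjusted p = 0.0746) and trichostatin A (44.1, 45.5 and 75.6 CPM at C1 and 42.5, 21.8 and 31.4 CPM at C5, -0.79 ± 0.26, edgeR adjusted p = 0.389) had lower values at C5 but were not called.

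CHD4, the other NuRD ATPase measured, was not called at C5. Its well counted probe (1284, median 800 counts) gave log2 values between -0.37 and 0.20 over the 8 inhibitors, for example 194, 174 and 246 CPM at C1 and 226, 185 and 199 CPM at C5 in mocetinostat. Those groups overlapped, in the inhibitor where CHD3 fell most. The other probe (1285, median 10 counts) ranged from -1.86 to 1.36 and was called at C4 of vorinostat alone. CHD5, an ATPase of neural tissue, had at most 3 counts in any library and was not tested.

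The MTA proteins, which hold the deacetylase in NuRD, fell in part. MTA2 fell in 4 inhibitors, with 231, 248 and 309.6 CPM at C1 and 131, 148 and 133 CPM at C5 in scriptaid (-0.94 ± 0.30), 251, 292 and 235 CPM at C1 and 136, 168 and 135 CPM at C5 in mocetinostat (-0.83 ± 0.22) and 223, 281 and 251 CPM at C1 and 129, 148 and 172 CPM at C5 in tacedinaline (-0.75 ± 0.15, edgeR adjusted p = 9.90e-05). Vorinostat gave -0.61 ± 0.15. The scriptaid call was lost without replicate 1 or 2 (edgeR adjusted p = 0.106 and 0.154), the mocetinostat call without replicate 2 (0.127) and the vorinostat call without replicate 1, where the fold change dropped under 1.5. The groups did not overlap in these inhibitors, whereas in trichostatin A (234, 251 and 286 CPM at C1 and 262, 236 and 190.2 CPM at C5) they did. MTA1 fell in 3, with 96.5, 82.6 and 86.6 CPM at C1 and 36.2, 35.9 and 35.7 CPM at C5 in vorinostat (-1.30 ± 0.22, edgeR adjusted p = 8.94e-06), and with log2 changes of -1.32 ± 0.24 in tacedinaline and -1.17 ± 0.31 in scriptaid, the last of which was not called without replicate 1 (edgeR adjusted p = 0.112). Its values in trichostatin A went the other way, 63.6, 67.3 and 56.7 CPM at C1 and 122, 75.3 and 73.3 CPM at C5, without overlap and without a call (0.53 ± 0.23, edgeR adjusted p = 0.482). MTA3 fell in tacedinaline only (-1.11 ± 0.29). The 3 inhibitors in which MTA1 fell are those of plate E, as are those in which RBBP7 and SAP18 probe 92873 rose. At C5, the calls of SUDS3, PHF21A, RCOR1, RCOR3, HMG20B, MTA3, MBD2, GATAD2B and RBBP4 were likewise all made in inhibitors of plate E. All CoREST calls are among these. Inhibitor and plate cannot be told apart for any of these features.

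MBD2 and MBD3, which define the forms of NuRD, were counted sparsely. MBD3 (median 13 counts) was not called, with log2 values from -1.30 to 1.36. MBD2 probe 25760 (median 9.5 counts) was called in vorinostat, where it had 6, 1 and 5 counts at C1 and 14, 13 and 10 counts at C5. Its log2 value (2.41 ± 0.88) was the largest called rise among the members in that inhibitor. The call was lost in each of 3 fits without a replicate (edgeR adjusted p between 0.0624 and 0.14). At C1 the probe lay under the filter on low counts. It passed only through libraries of other concentrations in which it was higher, so nothing is read from this call. The second MBD2 probe (27492) did not pass the filter within any inhibitor. GATAD2B, a bridging subunit of NuRD, rose in vorinostat (1.18 ± 0.30), a call lost without replicate 2 (edgeR adjusted p = 0.0643), and its paralog GATAD2A was not called.

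REST, the DNA-binding repressor that recruits CoREST and SIN3, was not called at C5 in any inhibitor. Its log2 values lay between -0.76 and 0.43 with a median of 48 counts per library. In scriptaid the libraries held 24.6, 23.0 and 10.7 CPM at C1 and 9.48, 11.5 and 13.5 CPM at C5, and in panobinostat 12.0, 16.5 and 9.33 CPM at C1 and 12.8, 18.5 and 19.9 CPM at C5. These groups overlapped. RCOR1, the scaffold of CoREST, rose in tacedinaline, from 5.30, 5.83 and 4.32 CPM to 11.9, 10.1 and 19.3 CPM (1.42 ± 0.55, edgeR adjusted p = 0.0343), a call lost without replicate 2 or 3 (0.062 and 0.254).

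The remaining CoREST subunits changed in few inhibitors. HMG20B, a DNA-binding subunit, had 4, 7 and 3 counts at C1 and 20, 9 and 19 counts at C5 of tacedinaline, overlapping in CPM. It was called (1.97 ± 0.77, the largest called rise among the members there). At C1 it lay under the filter on low counts and passed only through libraries of other concentrations in which it was higher. Nothing is therefore read from the call. That call was lost in each of 3 fits without a replicate (edgeR adjusted p between 0.0533 and 0.311) and when batch entered the model as a block (0.0522). PHF21A, which reads unmethylated histone H3, fell in tacedinaline (-0.66 ± 0.21) and vorinostat (-0.70 ± 0.19), and RCOR3 probe 15448 fell in scriptaid (-0.99 ± 0.36) and vorinostat (-0.77 ± 0.17), while RCOR3 probe 27770 (median 18.5 counts) was not called. Both PHF21A calls were lost without replicate 2 (edgeR adjusted p = 0.18 and 0.0831), and the RCOR3 call in scriptaid without replicate 1 or 2 (0.133 and 0.207). At C4 of scriptaid, the group with the library that stood apart, RCOR3 probe 15448 had a log2 value of 1.06 that was not called. KDM1A had at most 19 counts and RCOR2 at most 13, and neither passed the filter within an inhibitor, so C5 was not tested against C1.

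In NCoR, the scaffold was not called and 2 of its partners rose. NCOR1 was read by 2 probes, with log2 values from -0.53 to -0.05 for probe 21531 and from -0.73 to 0.00 for probe 27570, and neither was called. Probe 21531 passed the adjusted p in tacedinaline (0.0408) with overlapping groups and a fold change under the threshold. GPS2, a subunit that also restrains inflammatory signalling, rose in 5 inhibitors. It measured 119, 98.9 and 113 CPM at C1 and 284, 318 and 348 CPM at C5 in vorinostat (1.53 ± 0.16, edgeR adjusted p = 1.17e-09), 148, 127 and 117 CPM at C1 and 324, 278 and 363 CPM at C5 in scriptaid (1.30 ± 0.23) and 101, 122 and 126 CPM at C1 and 265, 248 and 284 CPM at C5 in tacedinaline (1.18 ± 0.16). Each C5 library lay above each C1 library there, as in apicidin (1.16 ± 0.18) and mocetinostat (0.89 ± 0.28), though the mocetinostat call was lost without replicate 1 or 2 (edgeR adjusted p = 0.0571 and 0.257). In trichostatin A GPS2 measured 133, 125 and 131 CPM at C1 and 87.8, 143 and 141 CPM at C5, with overlapping groups and no call (-0.06 ± 0.19).

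TBL1X, a WD40 subunit that docks NCoR on histones, rose in 4 inhibitors, with 112, 111 and 94.2 CPM at C1 and 186, 244 and 191 CPM at C5 in tacedinaline (0.98 ± 0.17) and smaller changes in vorinostat (0.87 ± 0.19), mocetinostat (0.72 ± 0.20) and panobinostat (0.60 ± 0.17). Its groups did not overlap in these inhibitors. The mocetinostat call was lost without replicate 1 or 2 (edgeR adjusted p = 0.121 and 0.145) and the panobinostat call without replicate 1 or 3 (0.163 and 0.296). In trichostatin A it measured 98.0, 126 and 100.2 CPM at C1 and 75.9, 67.9 and 91.2 CPM at C5, lower at C5 in all batches and not called. The paralog TBL1XR1 was called at C4 in valproic acid (-0.64) and in the opposite direction in vorinostat (0.74). It was not called at C5, although it passed the adjusted p in vorinostat (0.00194) at a log2 value of 0.56, under the fold threshold.

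Most calls appeared from C3 or C4 onwards. At C2, 0 of 288 tests of a member were called by edgeR (0.0865% of all tests in either direction), at C3 15 were higher and 3 lower (2.82% and 3.16% of all tests), and at C4 40 were higher and 14 lower (7.85% and 8.14%). At C2 the unadjusted p was under 0.05 for 6 members in mocetinostat, 4 in trichostatin A, 2 in apicidin, 1 each in tacedinaline and vorinostat and 0 in the other 3 inhibitors. The C2 count rose to 13 without replicate 3 and to 17 without the 4 libraries that stood apart, DESeq2 gave 2, and the C3 count of 18 fell to 7 without replicate 2 and 11 without replicate 3, and the C4 count of 54 to 35 without replicate 2. In apicidin, 6 of its 7 calls were present at C3 (0.376 µM, 15.3% of all features), whereas the 14 scriptaid calls and the 3 panobinostat calls were made at C5 only (at C4, 4.87% and 2.56% of all features were called). SAP30L was called from C3 in apicidin and tacedinaline and from C4 in mocetinostat and vorinostat. CHD3 was called from C3 in apicidin, mocetinostat and tacedinaline, from C4 in valproic acid and vorinostat, and at C5 in scriptaid. At scriptaid C4 the library of replicate 3 stood apart, with 46.8, 72.7 and 19.5 CPM of SAP30L and 40.9, 30.9 and 66.3 CPM of CHD3 in replicates 1, 2 and 3.

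**Figure D4:**
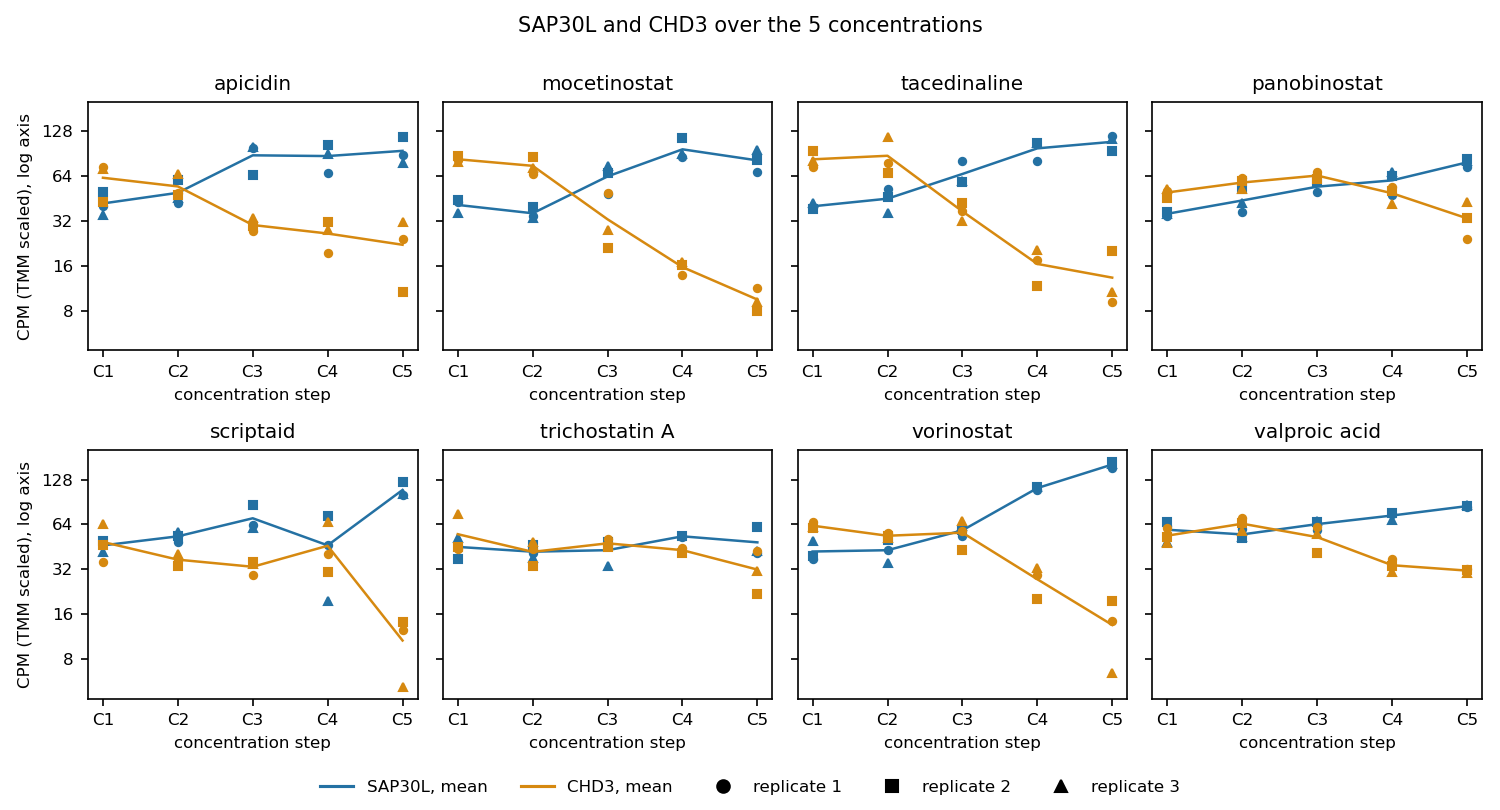
Level in CPM (TMM scaled, log axis) of SAP30L (blue) and CHD3 (orange) in each library over C1 to C5 of the 8 inhibitors; marker shape gives the replicate and lines join group means. In apicidin, mocetinostat and tacedinaline the mean of CHD3 lies above that of SAP30L at C2 and below it at C3. In scriptaid the mean of CHD3 lies below that of SAP30L at C2 and at C3 (33.3 and 70.4 CPM at C3). The scriptaid means meet at C4 (46.0 and 46.4 CPM), where the library of replicate 3 stood apart, and part again at C5. In trichostatin A the group means of CHD3 run from 31.9 to 55.1 CPM and those of SAP30L from 42.0 to 53.3 CPM.

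The change from C1 to C5 differed between inhibitors for 16 of 40 member features in an edgeR test of the 7 interaction contrasts together (adjusted p under 0.05), against 30.3% of all 15632 features. The count fell to 8 without replicate 2. The filter of this fit also kept KDM1A, RCOR2 and MBD2 probe 27492, which did not differ (edgeR adjusted p = 0.982, 0.967 and 0.672). Of the 28 pairs of inhibitors, tested singly with p adjusted over all features, ING1 differed in 14, CHD3 in 13, MTA1 in 11 and GPS2 in 9. For ING1, apicidin exceeded panobinostat by 1.21 ± 0.27 and trichostatin A by 1.65 ± 0.27 on the log2 scale (edgeR adjusted p = 0.00481 and 2.53e-06). For SAP30L 6 of the 7 pairs that differed included trichostatin A, and for TBL1X all 6, and for BRMS1 the 3 pairs set mocetinostat against panobinostat, trichostatin A and valproic acid. Between the hydroxamates panobinostat and vorinostat, the change of CHD3 differed by 1.74 ± 0.42 (adjusted p = 0.00202). Between the benzamides mocetinostat and tacedinaline, the difference was -0.52 ± 0.42 for CHD3 (95% interval -1.36 to 0.32, adjusted p = 0.843) and 0.77 ± 0.32 for MTA1 (0.13 to 1.41, adjusted p = 0.543), and neither passed the test. The pair of hydroxamates and the pair of benzamides each set an inhibitor of plate H against an inhibitor of plate E, so inhibitor and plate cannot be told apart. Concentrations were not matched in any pair, and these p-values were adjusted over features within a pair and not over pairs.

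The deacetylases and further subunits of the same complexes, a list of 15 other genes, had 14 calls higher and 16 lower in 99 tests (14.1% and 16.2%), near the 11.6% and 13.4% of all tests, so the list as a whole gave no result. Single genes of it, named with their values known, are given for context and not as a result. HDAC3, the deacetylase of NCoR, rose in 5 inhibitors, from 57.1 ± 7.62 to 234 ± 7.67 CPM in mocetinostat (mean ± SD, n = 3, log2 change 2.03 ± 0.18, edgeR adjusted p = 5.33e-07) and from 52.7 ± 19.0 to 258 ± 2.28 CPM in vorinostat (2.29 ± 0.22). HDAC2 rose in 4 inhibitors by log2 changes of at most 1.15 ± 0.14, and HDAC1 was not called in any. SAP130, a SIN3 subunit, rose in 4. Of the subunits that fell, GSE1, a CoREST partner, was lower in 6 inhibitors, for example from 56.9 ± 7.58 to 10.8 ± 4.74 CPM in vorinostat (-2.35 ± 0.30), and CTBP1 in 4. BRMS1L, the paralog of BRMS1, fell in 3, among them vorinostat (-0.83 ± 0.19), in which BRMS1 rose.

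Neuronal genes known to be repressed by REST, a list of 15, had 20 calls higher and 1 lower in 39 tests. Between 2 and 8 of its 19 features passed the filter in an inhibitor, and a feature near 0 at C1 can pass only through groups in which it is higher, so the filter partly sets this tally and nothing is read from it. BDNF, a neurotrophin, was higher at C5 in 7 inhibitors, from 30.7 ± 4.75 to 80.5 ± 8.81 CPM in valproic acid (1.40 ± 0.24). SCG2, a granin of secretory vesicles, measured 1.43 ± 0.883 CPM at C1 and 91.9 ± 8.18 CPM at C5 in mocetinostat. Being near 0 at C1 there, it falls under this limit of the filter, and its calls are not counted. The summed level of the list was 18.4 to 29.5 CPM at C1 and 154 to 188 CPM at C5 in mocetinostat, and 26.4 to 31.7 CPM and 74.3 to 78.4 CPM in panobinostat. SCG2 is part of these sums, with the 91.9 CPM above in that of mocetinostat at C5, and they are given as levels only. In trichostatin A the sum was 23.3 to 69.1 CPM at C1 and 21.5 to 34.2 CPM at C5. A link between these levels and REST, which was not called at C5, was not tested.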

How the data were processed

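Expression was measured with TempO-Seq in 118 HepaRG libraries. The values the authors deposited are unnormalised counts of reads per probe in 1 table; the submitters' notes name bcl2fastq 2.20.422, fastp 0.23.2, STAR 2.7.10b and DESeq2 1.38.0, and the genome build behind the counts is not given in the sources used here. Of 22069 rows, 1 lacked values in 88 libraries and was left out. The paper read alongside describes another experiment and gave no value or setting. Members and gene lists were chosen with earlier results of these data known.

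For each inhibitor, a model of its own libraries was fitted with edgeR 4.0.16 in R 4.3.3 (filterByExpr, TMM, quasi-likelihood F tests of C2 to C5 against C1). Calls needed a Benjamini-Hochberg adjusted p below 0.05 together with a change of 1.5-fold or more, and standard errors were derived from the log2 change and its F. The difference between inhibitors was tested in a fit of all 118 libraries. The method was tested on simulated data. Displayed CPM are counts divided by the TMM-scaled library size. Counts covered 1061359 to 5250260 reads per library, and precision for features of few counts is low; reads are not independent molecules.

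Members were named with values when called in the same direction in at least 4 inhibitors, when they had the largest called change in an inhibitor, or when they are scaffolds (REST, RCOR1, KDM1A, SIN3A, CHD4, MBD2, MBD3 and NCOR1), and others by range. Members whose values are given beyond this rule (MTA1, MTA3, TBL1XR1, PHF12, SUDS3, PHF21A, RCOR3, RBBP4, RBBP7, GATAD2B) were chosen after their values were seen. Replicate numbers pair the libraries, as each number stands for 1 HepaRG batch in the labels; deviations from group means correlated with a median r of 0.0311 in 232 pairs of the same batch and -0.0125 in 464 pairs of different batches. Whether a batch was a separate culture is stated by the labels only as a batch number, and p-values measure the spread between these libraries. Alternatives were RLE size factors, DESeq2 1.42.0, no filter, no fold threshold, the batch as a block, each replicate left out, thinning to 1061359 counts, 1 fit of all libraries, probes summed per gene and, chosen after seeing the data, leaving out the 4 libraries that stood apart.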

Additional observations from a re-analysis of the deposited data

Results flagged for a closer look

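The change from C1 to C5 differed between the 8 inhibitors for 16 member features by the edgeR interaction test, with p adjusted over all features and concentrations that were not matched. Of all 15632 features, 30.3% passed the same test, so passing it is not particular to the members. In SIN3, the adjusted p was 1.63e-11 for ING1, 1.80e-05 for ING2, 9.86e-05 for SAP30L, 0.000295 for SAP30, 0.00322 for SAP18 probe 92874, 0.00394 for SAP18 probe 92873, 0.00636 for PHF12, 0.0103 for BRMS1 and 0.0107 for SIN3A. In NuRD, it was 4.04e-09 for CHD3, 5.04e-08 for MTA1 and 0.000211 for MTA2. In NCoR, it was 1.02e-05 for GPS2, 6.88e-05 for TBL1X and 0.0459 for TBL1XR1, and in CoREST 0.0343 for RCOR3 probe 15448. The groups held 3 libraries at most and were too small to look for single outlying libraries by this route.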

How the results depend on the processing

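The number of called members kept within 1.5 times its value under RLE size factors, summed probes, no fold threshold and the batch as a block, in every comparison for which such a fit was made. DESeq2 called 2 members at C2. Without the filter on low counts panobinostat had 5 calls. In 1 fit of all libraries there were 4 calls at C2, 18 in mocetinostat and 1 in valproic acid. After thinning, panobinostat and valproic acid had 1 call each. Without the 4 libraries that stood apart there were 17 calls at C2 and 20 in mocetinostat. With each replicate left out in turn, the calls ranged from 0 to 13 at C2, 7 to 12 at C3, 35 to 46 at C4, 5 to 7 in apicidin, 4 to 9 in mocetinostat, 1 to 4 in panobinostat, 3 to 17 in scriptaid, 15 to 20 in tacedinaline, 0 to 0 in trichostatin A, 0 to 1 in valproic acid and 17 to 22 in vorinostat, and the features that differed between inhibitors from 8 to 15. The causes of these shifts were not tested, beyond the smaller number of libraries in the fits without a replicate.

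Replicate numbers pair the libraries by batch. With the batch as a replicate block, the calls were 0 at C2, 18 at C3, 59 at C4, 8 in apicidin, 10 in mocetinostat, 3 in panobinostat, 15 in scriptaid, 19 in tacedinaline, 0 in trichostatin A, 3 in valproic acid and 21 in vorinostat, and 16 features differed between inhibitors. Among the 57 named changes the block ended the call of HMG20B in tacedinaline and no other.

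Of these 57 changes, 33 stayed called in all 3 fits without a replicate and 24 did not, and 0 reversed their direction under any alternative. Features with few counts (HMG20B, MBD2, MBD3, SIN3B and KDM1A) are limited by depth, and changes of less than 1.5-fold were not called by construction.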
